A study of Mus musculus with 6 samples.

Results

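The 9 genes described here encode nuclear receptors, ligand-regulated transcription factors for steroids, vitamin D, retinoids and fatty acids, together with 1 orphan receptor. They are Esr1, Nr3c1, Vdr, Rara, Rarg, Rxra, Ppard, Pparg and Nr2f2. They were chosen by name, and all 9 are among the 11417 genes of the deposited expression table. Poly(A) RNA was sequenced from 3 established mouse mammary lines labelled epithelial (BC44, C57MG and HC11), with 2 libraries of each. No line was treated, and all were grown in dishes in medium with 10% serum and harvested 2 days after plating. BC44 medium held 5 µg/ml insulin, HC11 medium held 5 µg/ml insulin and 10 ng/ml epidermal growth factor (EGF), and C57MG cells had another base medium with 10 µg/ml insulin. Line and medium therefore cannot be told apart. The labels record no added steroid or retinoid, and serum itself carries both.

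Nuclear receptors bind DNA through a zinc-finger domain and change the transcription of nearby genes when a small lipophilic ligand binds. Steroid receptors such as those for oestrogen and glucocorticoid act mainly as homodimers, whereas the retinoic acid, vitamin D and peroxisome proliferator-activated receptors pair with a retinoid X receptor. In the mammary gland, oestrogen drives duct growth through the oestrogen receptor of luminal cells, and glucocorticoids act with prolactin in milk protein synthesis, a response for which HC11 is a common model.

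Values are RPKM, read numbers scaled to gene length and library depth, which allows levels of different genes to be set side by side. Depth, estimated from the spacing of low values, was 14050000 to 18420000 reads per library. Differences between lines are on the log2(RPKM + 1) scale from limma, a linear model with shared variance, with 2 libraries per line. A difference was called when its Benjamini-Hochberg adjusted p-value over 10759 tested genes was under 0.05. The labels do not say whether the 2 libraries of a line came from separate cultures, so the p-values measure only the spread between these libraries. The lines also differed in their marker genes: the summed RPKM of 8 epithelial markers was 4781 to 4987 in BC44, 2219 to 3064 in HC11 and 65.5 to 136.5 in C57MG. Most of each sum came from Krt5 and Krt14, with means of 1920 and 2726 RPKM in BC44 and 767 and 1241 in HC11. By gene, 6 of the 8 were called between BC44 and HC11, 5 of them higher in HC11, such as Krt8 (means of 0.051 and 146.2 RPKM). Of all tested genes, 47.7% were called in that contrast, and the marker median was -1.6. Krt8, Krt18 and Krt7 entered the test only through HC11, so their calls toward HC11 follow from that. The count and the median include these genes. For 8 mesenchymal markers the sum was 7106 to 7338 in C57MG and 252.3 to 380.6 in the other lines. In C57MG, labelled epithelial, Cdh1 was at 1.09 and 0 RPKM and Epcam at 0.949 and 0, and in BC44 Krt18 was listed at 0 in both libraries. These marker differences run alongside every contrast below, and their part in the receptor differences was not tested. In bulk RNA, fewer cells of a kind and less RNA per cell cannot be told apart.

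Vdr, Rarg and Rxra led the set in BC44 and C57MG, and Rarg, Ppard and Nr2f2 led it in HC11. By mean RPKM the 9 genes ran Vdr, Rarg, Rxra, Ppard, Nr3c1, Nr2f2, Rara, Esr1 and Pparg in BC44, where the libraries of Nr2f2 and Rara overlapped, as did those of Esr1 and Pparg. In HC11 the order was Rarg, Ppard, Nr2f2, Vdr, Rxra, Nr3c1, Rara, Esr1 and Pparg, and the libraries of Ppard and Nr2f2, of Nr2f2 and Vdr, and of Vdr and Rxra overlapped. In C57MG it was Vdr, Rarg, Rxra, Nr3c1, Rara, Ppard, Nr2f2, Pparg and Esr1, with no overlap between neighbours. The 9 genes summed to 166.3 and 171.7 RPKM in BC44, at 133.1 and 136.5 in HC11 and at 220.4 and 225.3 in C57MG. The plot of RPKM by library gives the values of all 9.

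**Figure D1:**
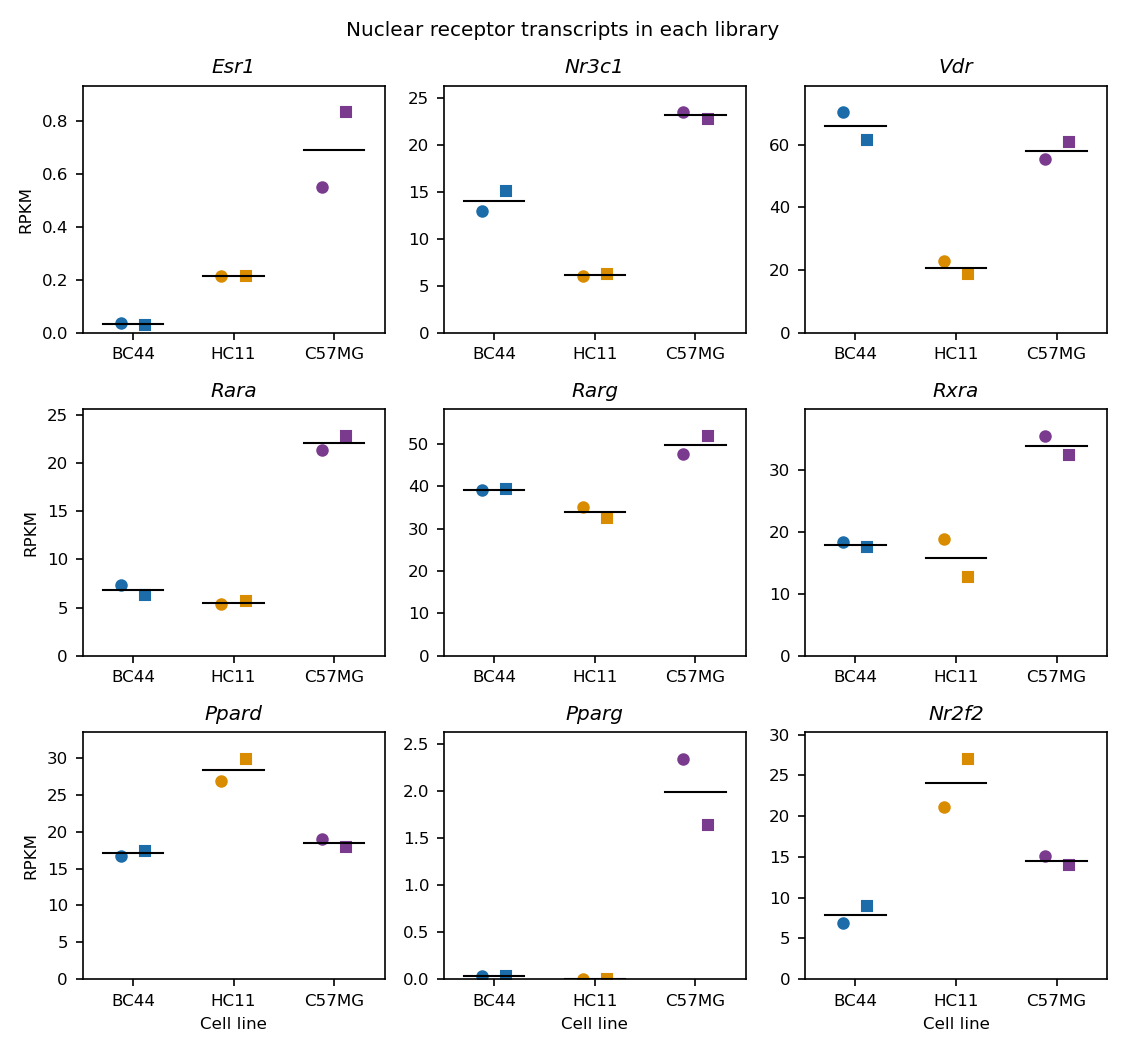
RPKM of the 9 receptor genes (vertical axis, each panel with its own scale from 0) in BC44, HC11 and C57MG. Circles are replicate 1, squares replicate 2 and bars the mean of 2 libraries; Esr1 stays below 1 RPKM in all 6 libraries, and Pparg is visible only in C57MG, at 2.343 and 1.635 RPKM.

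Esr1 and Nr3c1 are the steroid receptors of the set. Esr1, the oestrogen receptor alpha gene (ENSMUSG00000019768, chromosome 10, 4611593 to 5005614 in GRCm38), was below 1 RPKM in every library. It was at 0.035 and 0.029 RPKM in BC44, at 0.213 and 0.215 in HC11 and at 0.551 and 0.831 in C57MG. The lines did not overlap, and all 6 values were too low to enter the main test. Over 13661 exonic bases, the estimated reads were 137 and 174 for C57MG, 54 and 41 for HC11 and 7 and 7 for BC44, so that only BC44 was near the floor of 3 reads per library. The C57MG mean, 0.691 ± 0.198 RPKM (SD, n = 2), was 21.6 times the BC44 mean and 3.23 times the HC11 mean, without a test in the main fit. Of the listed genes, 12.8% were below Esr1 in C57MG, 5.6% in HC11 and 2.3% in BC44.

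Nr3c1, the glucocorticoid receptor gene (ENSMUSG00000024431, chromosome 18, 39410545 to 39519421), was the most abundant of these steroid receptors in all 3 lines. It was at 12.914 and 15.121 RPKM in BC44, at 6.070 and 6.241 in HC11 and at 23.475 and 22.826 in C57MG. The 3 lines formed 3 separate levels, with HC11 lowest and C57MG highest. BC44 exceeded HC11 by 1.07 (SE 0.10, limma adjusted p-value 0.000142), a ratio of mean RPKM of 2.28. C57MG exceeded HC11 by 1.75 (SE 0.10, 3.84e-06) and BC44 by 0.69 (SE 0.10, 0.000521), ratios of 3.76 and 1.65. Esr2 and Nr3c2, the genes of the oestrogen receptor beta and the mineralocorticoid receptor, are not listed in the table.

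Vdr, the vitamin D receptor gene (ENSMUSG00000022479, chromosome 15, 97854425 to 97910630), was abundant in BC44 and C57MG and lower in HC11. It was at 70.379 and 61.449 RPKM in BC44, at 55.491 and 60.924 in C57MG and at 22.796 and 18.726 in HC11. HC11 stood apart from both other lines, which lay close together. Over HC11, BC44 was higher by 1.62 (SE 0.12, limma adjusted p-value 3.64e-05) and C57MG by 1.45 (SE 0.12, 2.28e-05), ratios of 3.17 and 2.8. Between BC44 and C57MG the difference was 0.17 (SE 0.12, 0.213) and was not called. In BC44, 91.6% of listed genes were below Vdr, against 90.3% in C57MG and 71.1% in HC11. Of all 29 nuclear receptor genes in the table, Vdr alone made up 20.8% to 22.2% of the summed RPKM in BC44, 15.4% to 17.6% in C57MG and 6.45% to 7.41% in HC11.

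Rara, Rarg and Rxra, which encode retinoic acid receptors alpha and gamma and their partner retinoid X receptor alpha, were all highest in C57MG. Rara (ENSMUSG00000037992, chromosome 11, 98927818 to 98974942) was at 7.302 and 6.263 RPKM in BC44, at 5.329 and 5.644 in HC11 and at 21.297 and 22.824 in C57MG. Both C57MG libraries lay far above the other 4, which spanned 5.329 to 7.302 RPKM. C57MG exceeded BC44 by 1.57 (SE 0.11, limma adjusted p-value 7.52e-06) and HC11 by 1.83 (SE 0.11, 3.95e-06), ratios of 3.25 and 4.02. BC44 and HC11 differed by 0.26 (SE 0.11, 0.0798), which was not called.

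Rarg (ENSMUSG00000001288, chromosome 15, 102234938 to 102257517) was the more abundant retinoic acid receptor in every library, and it varied less between lines. It was at 39.032 and 39.360 RPKM in BC44, at 35.171 and 32.509 in HC11 and at 47.483 and 51.918 in C57MG. The lines did not overlap, and the C57MG mean was 1.47 times that of HC11 and 1.27 times that of BC44. C57MG exceeded HC11 by 0.54 (SE 0.08, limma adjusted p-value 0.000696) and BC44 by 0.33 (SE 0.08, 0.00771). The difference from BC44 was not called without C57MG replicate 2 (0.27, adjusted p-value 0.0690). BC44 and HC11 differed by 0.21 (SE 0.08, 0.0748), again not called. Rarb is not listed in the table.

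Rxra (ENSMUSG00000015846, chromosome 2, 27676440 to 27762957) was at 18.407 and 17.606 RPKM in BC44, at 18.937 and 12.829 in HC11 and at 35.630 and 32.431 in C57MG. C57MG was again above all other libraries, while BC44 lay inside the range of the HC11 replicates. C57MG exceeded BC44 by 0.88 (SE 0.16, limma adjusted p-value 0.00180) and HC11 by 1.08 (SE 0.16, 0.000661), ratios of 1.89 and 2.14. Between BC44 and HC11 the estimate was 0.19 (SE 0.16, 0.363), and it depended on the HC11 libraries. Without HC11 replicate 1 it was 0.46 and called (0.0160), and without HC11 replicate 2 it turned to -0.069 (0.612). Rxrb, the gene of retinoid X receptor beta, was lower than Rxra and also highest in C57MG, with 9.69 ± 0.733 RPKM there, 6.58 ± 0.497 in HC11 and 5.10 ± 0.0389 in BC44 (SD, n = 2 each), called in all 3 contrasts. Rxrg is not listed.

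Upstream sequences of these 3 retinoid receptor genes are shown because all were higher in C57MG than in both other lines. They are the 250 bases before a RefSeq transcription start (GRCm38.p6), 5′ to 3′ on the gene's strand, and none of their bases overlap a GENCODE M21 exon. Capitals mark AGGTCA, the core hexamer that many nuclear receptors bind, or its reverse complement TGACCT. For Rxra the window of a start inside the gene was chosen because it holds matches, and the window of its first start holds none. The coordinates are chr11:98937446-98937695 (plus strand) for Rara, chr15:102257523-102257772 (minus strand) for Rarg and chr2:27709042-27709291 (plus strand) for Rxra.
Rara: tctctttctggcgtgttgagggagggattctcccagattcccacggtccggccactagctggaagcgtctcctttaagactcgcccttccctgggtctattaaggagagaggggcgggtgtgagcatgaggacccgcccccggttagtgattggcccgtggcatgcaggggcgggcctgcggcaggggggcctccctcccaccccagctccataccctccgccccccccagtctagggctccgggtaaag
Rarg: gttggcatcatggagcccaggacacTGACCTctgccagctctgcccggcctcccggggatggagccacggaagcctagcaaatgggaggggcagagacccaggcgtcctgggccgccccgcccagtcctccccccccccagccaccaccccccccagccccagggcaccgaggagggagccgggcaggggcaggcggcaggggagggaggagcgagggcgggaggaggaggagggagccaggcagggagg
Rxra: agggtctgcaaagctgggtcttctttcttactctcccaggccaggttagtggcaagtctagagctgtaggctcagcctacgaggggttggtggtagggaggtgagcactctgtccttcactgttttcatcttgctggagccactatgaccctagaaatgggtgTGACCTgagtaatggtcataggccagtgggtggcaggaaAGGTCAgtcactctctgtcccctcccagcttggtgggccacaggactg

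The Rarg window held 1 match, which begins 225 bases before the start, and the Rxra window held 2, at 87 and 48 bases, on opposite strands. The Rara window held none. RefSeq windows were found for 8 of the 9 genes by symbol, 16 windows in all. Some windows of a gene overlap. AGGTCA was present on either strand in 4 of the 16, belonging to 3 genes (Rarg, Rxra and Pparg), against 14.0% of all 32851 windows of the same length. The GRHL motif AACCNGTT, searched because the series concerns GRHL factors, was in 0 of the 16 windows and in 1.79% of all windows. These matches are letters in a window and were not tied to any binding measurement.

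Ratios of 2 receptors within a library do not depend on its scaling, and they separated the lines too. The Rara to Rarg ratio of RPKM was 0.449 and 0.440 in C57MG, 0.187 and 0.159 in BC44, and 0.152 and 0.174 in HC11. C57MG thus had more Rara for each unit of Rarg, while BC44 and HC11 overlapped. The Nr2f2 to Vdr ratio was 0.925 and 1.44 in HC11, 0.272 and 0.230 in C57MG, and 0.0971 and 0.146 in BC44, so that only HC11 had Nr2f2 near or above Vdr. The Nr3c1 to Vdr ratio was highest in C57MG, at 0.423 and 0.375. It was 0.266 and 0.333 in HC11 and 0.183 and 0.246 in BC44, without overlap between lines. These ratios are given without a test. The summed RXR genes (Rxra and Rxrb) were at 0.497 to 0.508 of the summed Rara and Rarg RPKM in BC44, 0.499 to 0.639 in HC11 and 0.570 to 0.651 in C57MG, and the HC11 range overlapped both others.

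**Figure D2:**
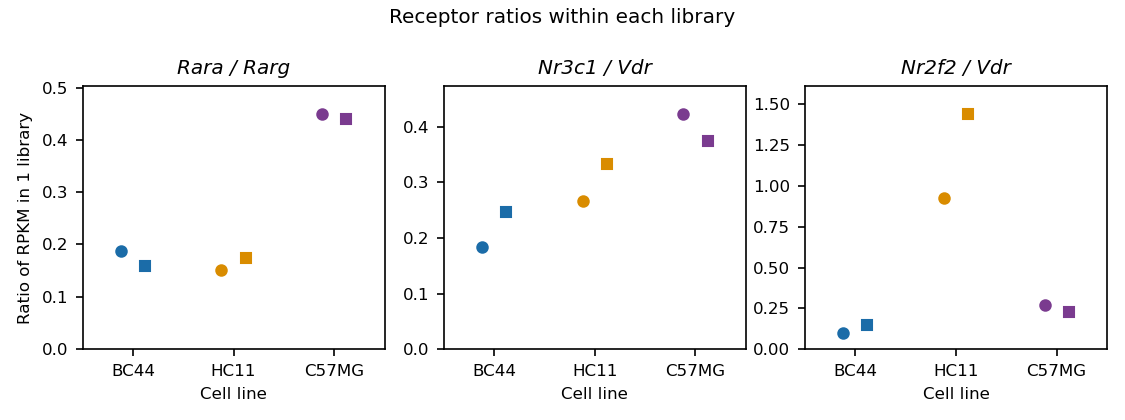
Ratios of RPKM between pairs of receptor genes within each library (vertical axis from 0) for the 3 lines, with circles for replicate 1 and squares for replicate 2. Rara over Rarg is 0.440 and 0.449 in C57MG against at most 0.187 elsewhere, and Nr2f2 over Vdr is 0.925 and 1.44 in HC11 against at most 0.272 elsewhere.

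Ppard and Pparg encode peroxisome proliferator-activated receptors, which bind fatty acids. Ppard, the broadly expressed delta member (ENSMUSG00000002250, chromosome 17, 28232700 to 28301474), was at 16.748 and 17.424 RPKM in BC44, at 26.940 and 29.885 in HC11 and at 18.998 and 17.900 in C57MG. HC11 was above both other lines, which lay close together. HC11 exceeded BC44 by 0.70 (SE 0.09, limma adjusted p-value 0.000597) and C57MG by 0.60 (SE 0.09, 0.000612), ratios of 1.66 and 1.54. BC44 and C57MG differed by -0.10 (SE 0.09, 0.320), not called.

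Pparg, the regulator of adipocyte differentiation (ENSMUSG00000000440, chromosome 6, 115360951 to 115490399), was detected above the floor only in C57MG. It was at 2.343 and 1.635 RPKM there, at 0.034 and 0.029 in BC44, and listed at 0 in both HC11 libraries. C57MG had an estimated 199 reads over its 2 libraries against 3 in BC44, a ratio of read rates of 62.6 with an exact 95% interval of 21.1 to 306 that covers counting error only. Rounded by library, the estimates were 126 and 74 reads in C57MG and 1 and 1 in BC44. The interval does not cover this uncertainty of the read estimates. Over HC11 it was at least 31.2-fold higher, against a floor of 3 reads per library. Pparg entered the test only through C57MG, so its called differences, 1.52 over BC44 and 1.57 over HC11 (SE 0.12, limma adjusted p-values 2.05e-05 and 2.04e-05), follow from that. The BC44 level was 1.71% and 1.46% of the C57MG mean in replicates 1 and 2. The 7 mesenchymal markers with at least 20 RPKM in C57MG had medians of 1.21% and 2.30% of their C57MG level in the same libraries. Single markers ranged from 0.609% to 35.2% in replicate 1 and from 1.9% to 35.7% in replicate 2. The source of the BC44 Pparg values was not tested. Of 6 adipocyte markers only Fabp4 is listed in the table, at 0.695 and 0.407 RPKM in C57MG and 4.142 and 8.765 in HC11, with 1.718 and 1.350 in BC44, while Adipoq, Plin1, Cidec, Lep and Retn are not. Ppara is not listed either.

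Nr2f2, which encodes the orphan receptor COUP-TFII (ENSMUSG00000030551, chromosome 7, 70351944 to 70366735), was highest in HC11 and lowest in BC44. It was at 6.835 and 8.992 RPKM in BC44, at 21.082 and 27.038 in HC11 and at 15.099 and 14.018 in C57MG. The lines did not overlap. HC11 exceeded BC44 by 1.49 (SE 0.15, limma adjusted p-value 0.000225) and C57MG by 0.68 (SE 0.15, 0.00548), and C57MG exceeded BC44 by 0.81 (SE 0.15, 0.00212). The ratios of mean RPKM were 3.04, 1.65 and 1.84. An antisense transcript, B130024G19Rik, shares 643 of the 8625 exonic bases of Nr2f2 in GENCODE M21, and whether the counting used the strand is not given in the sources used here. No other member shares exonic bases with another gene. Nr2f1, the related COUP-TFI gene, was low everywhere and followed a like order, at 0.881 and 0.997 RPKM in HC11, at 0.349 and 0.737 in C57MG and at 0.060 and 0.072 in BC44.

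Across the contrasts, 8 of the 9 genes passed the filter on low values and were tested, and Esr1 did not pass it. Between BC44 and HC11, 4 of 8 were called, Nr3c1 and Vdr higher in BC44 and Ppard and Nr2f2 higher in HC11, where 47.7% of all tested genes were called (24.7% higher in BC44, 23% higher in HC11). Between BC44 and C57MG, 6 of 8 were called, all 6 higher in C57MG (Nr3c1, Rara, Rarg, Rxra, Pparg and Nr2f2), where 71.7% of all tested genes were called (37.5% higher in BC44, 34.1% higher in C57MG). Between HC11 and C57MG all 8 were called, 6 higher in C57MG and 2, Ppard and Nr2f2, higher in HC11, against 70.5% of all tested genes (37.4% higher in HC11, 33.2% higher in C57MG). Both libraries of 1 line lay above both of the other for 7 of 8 when BC44 and HC11 were compared (73% of all tested genes), and for 8 of 8 with BC44 and C57MG (87.9%) and with HC11 and C57MG (86.2%). Pparg is among these 8 only because it passed the filter in C57MG, and its BC44 values lie under the floor. Without it, 4 of 7 were called for BC44 and HC11, 5 of 7 for BC44 and C57MG (all higher in C57MG) and 7 of 7 for HC11 and C57MG, and the libraries did not overlap for 6, 7 and 7 of the 7. The median difference of the 8 was 0.20 for BC44 minus HC11, -0.75 for BC44 minus C57MG and -1.26 for HC11 minus C57MG, where the median of all tested genes was 0.02, 0.04 and 0.03. Without Pparg the medians were 0.21, -0.69 and -1.08. The contrasts share libraries, so their counts are not independent.

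**Figure D3:**
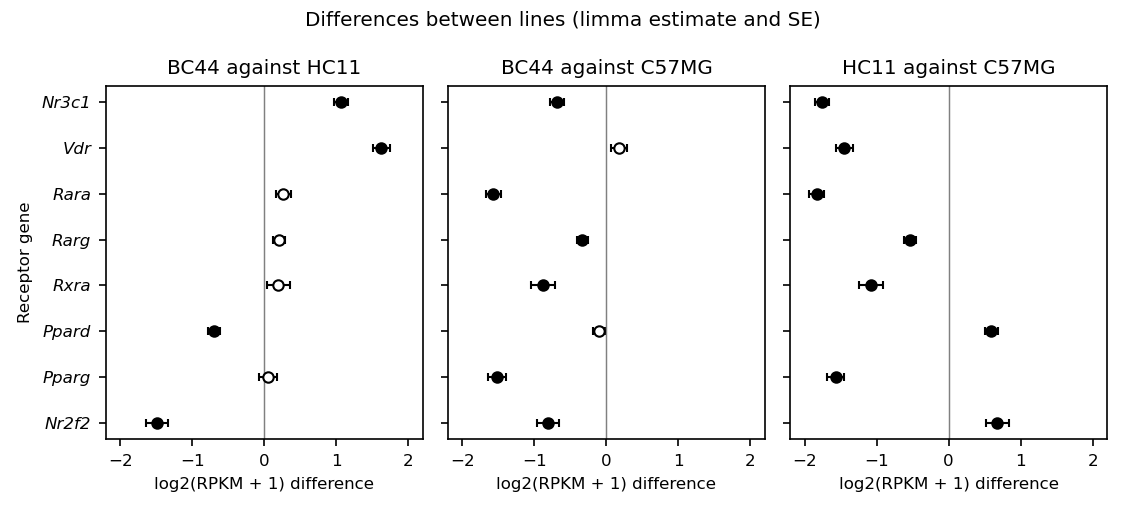
Log2(RPKM + 1) differences between lines (horizontal axis) for the 8 tested receptor genes in 3 contrasts, with limma standard errors as bars; filled points have an adjusted p-value under 0.05. In both contrasts with C57MG, Rara, Rarg, Rxra, Nr3c1 and Pparg lie left of 0, meaning higher in C57MG, with Rara at -1.57 and -1.83.

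Of 47 nuclear receptor genes looked up, 29 are in the table, and 17 of these had at least 1 RPKM in every library. Of the 29, 23 could be tested, 4 of them (Pparg, Rora, Nr1h3 and Nr1h4) through 1 line only. Of the 23, 10 were called in BC44 against HC11 (4 higher in BC44), 16 when BC44 was compared with C57MG (6 higher in BC44) and 18 when HC11 was (8 higher in HC11). Their shares of 43.5%, 69.6% and 78.3% lay near the backgrounds of 47.7%, 71.7% and 70.5%. The medians were -0.04, -0.10 and -0.21. These counts, shares and medians include the 4 genes tested through 1 line, none of which was called between BC44 and HC11. In the contrasts with C57MG, a call of theirs toward the line that admitted them follows from the filter. Counts without the 4 were not made. Of the RPKM summed over the 29, the 9 genes made up 54.2% to 56.4% in BC44, 44.4% to 45.8% in HC11 and 61.3% to 65.0% in C57MG. In HC11 the most abundant receptor gene was Nr2f6, an orphan receptor of the COUP-TF family, at 38.557 and 48.989 RPKM.

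Some receptors outside the 9 had larger contrasts. Nr1h4, the bile acid receptor gene, was at 5.262 and 4.760 RPKM in C57MG, 0.059 and 0.124 in BC44, and listed at 0 in both HC11 libraries. It was at least 61.3-fold higher in C57MG than in HC11, and its BC44 values were 1.18% and 2.47% of the C57MG mean, beside the marker medians of 1.21% and 2.30% given above. Those BC44 values rest on an estimated 2 and 5 reads, near the floor of 3 reads, and their source was not tested. Nr4a1, an immediate early orphan receptor gene, ran the other way, at 11.230 and 13.795 RPKM in HC11, at 3.290 and 2.942 in BC44 and at 0.089 and 0.079 in C57MG. HC11 exceeded BC44 by 1.71 (SE 0.12, limma adjusted p-value 3.72e-05) and C57MG by 3.63 (SE 0.12, 3.76e-07). The C57MG values of Nr4a1 were an estimated 6 and 4 reads, near the floor of 3 reads, where the log2(RPKM + 1) scale understates a change. Thra, the thyroid hormone receptor alpha gene, had the order of Nr3c1, with 24.4 ± 1.60 RPKM in C57MG, 16.3 ± 1.43 in BC44 and 9.08 ± 2.45 in HC11 (SD, n = 2 each), and was called in all 3 contrasts. Esrra, an orphan receptor gene linked to mitochondrial metabolism, had the opposite order, with 6.83 ± 1.36, 15.4 ± 1.89 and 22.6 ± 3.68 RPKM in the same lines, and was also called in all 3.

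**Figure D4:**
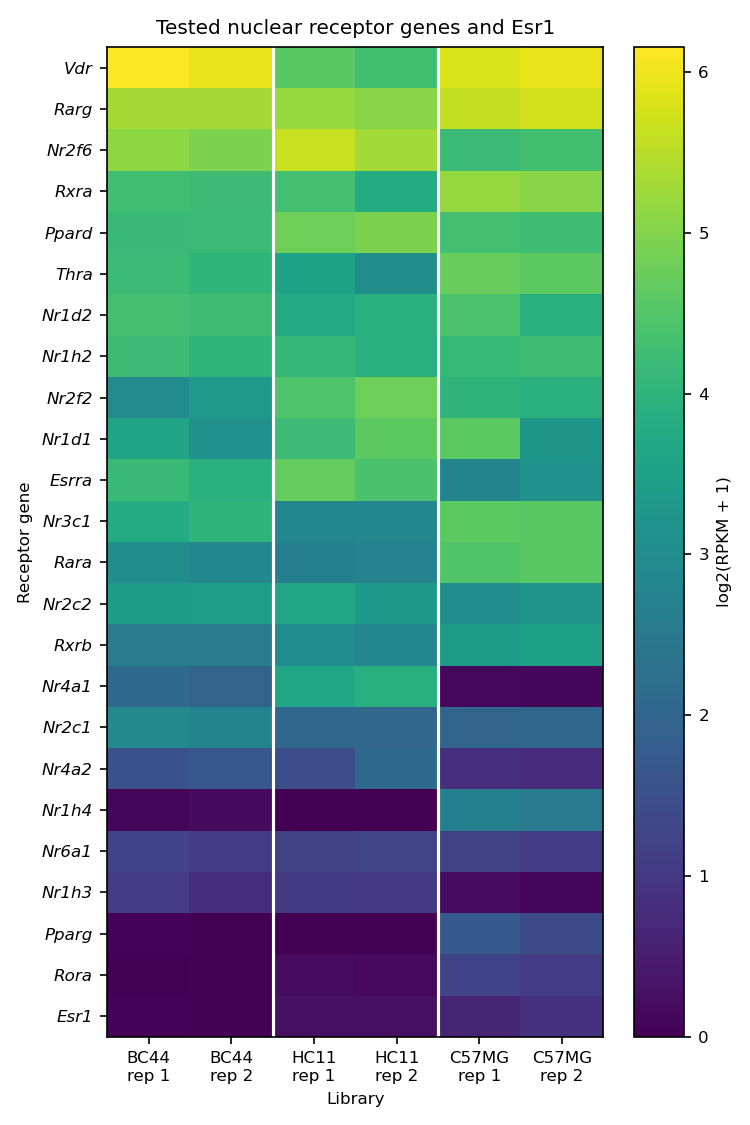
Log2(RPKM + 1), as colour, of the 23 tested nuclear receptor genes and Esr1 (rows, ordered by mean RPKM) in the 6 libraries (columns, grouped by line). Vdr and Rarg lead the list, and Nr1h4 and Pparg are at the low end of the scale in BC44 and HC11 while Nr4a1 is so in C57MG, at 0.089 and 0.079 RPKM.

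Genes that bind or metabolise retinoids were mostly lower in C57MG, the line where Rara, Rarg and Rxra were highest. Of 16 looked up 6 are in the table, and none of the called ones was higher in C57MG than in BC44. For BC44 and C57MG 4 of 6 were called, each of them higher in BC44 (71.7% of all tested genes were called), and for HC11 and C57MG 5 of 6, with 4 higher in HC11 (70.5%). For BC44 and HC11 4 of 6 were called, 2 in each direction (47.7%). The medians were 1.44 and 1.74, against 0.04 and 0.03 over all tested genes. Crabp2, which encodes a carrier that delivers retinoic acid to its receptor, was at 63.427 and 52.715 RPKM in BC44, at 97.221 and 77.340 in HC11 and at 3.097 and 4.514 in C57MG. The line with most Rara had least Crabp2: the BC44 mean was 15.3 times and the HC11 mean 22.9 times that of C57MG, both called (limma adjusted p-values 1.28e-06 and 7.84e-07). Cyp26b1, whose enzyme degrades retinoic acid, was at 22.031 and 22.551 RPKM in BC44, at 2.076 and 3.699 in HC11 and at 0.24 and 0.187 in C57MG, called in all 3 contrasts. Fabp5, a fatty acid and retinoid carrier gene, was at 91.6 ± 12.5 RPKM in HC11, 77.2 ± 2.65 in BC44 and 21.1 ± 0.413 in C57MG (SD, n = 2 each). Rdh10, whose enzyme oxidises retinol, had 26.0 ± 3.21 RPKM in HC11, 14.8 ± 1.36 in BC44 and 6.61 ± 0.742 in C57MG and was called in all 3. Dhrs3, which encodes an enzyme that returns retinal to retinol, was at 9.814 and 6.403 RPKM in BC44, at 2.189 and 1.598 in HC11 and at 2.987 and 7.246 in C57MG, whose replicates differed.

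**Figure D5:**
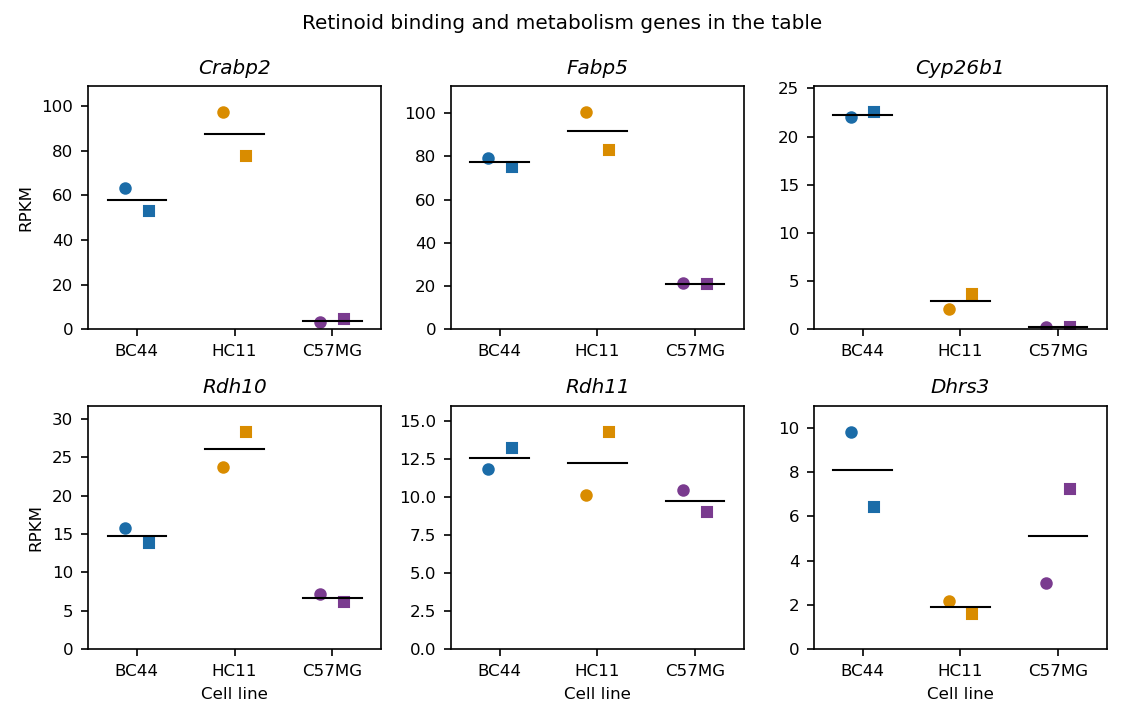
RPKM (vertical axes from 0, separate scales) of the 6 listed genes of retinoid binding and metabolism in the 3 lines, with circles for replicate 1, squares for replicate 2 and bars for the mean. Crabp2 is at most 4.514 RPKM in C57MG and at least 52.715 in the other lines, and Cyp26b1 is highest in BC44, at 22.031 and 22.551.

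Retinoic acid target genes did not share 1 direction. Of 11 looked up 5 are in the table, and 4 of 5 were called in each contrast, beside 47.7% of all tested genes for BC44 and HC11, 71.7% for BC44 and C57MG and 70.5% for HC11 and C57MG. Against C57MG, BC44 was higher for 3 of the called genes and lower for 1, Tgm2, a transglutaminase gene, which was at 14.314 and 26.955 RPKM in C57MG, at 13.730 and 18.099 in HC11 and at 1.291 and 0.883 in BC44. HC11 was higher than C57MG for 3 and lower for 1, Dhrs3. Crabp2, Cyp26b1 and Dhrs3 are on both retinoid lists.

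Glucocorticoid target genes differed in both directions. Of 18 looked up 15 are in the table and were tested. Between BC44 and HC11 11 of 15 were called, 9 of them higher in HC11 (47.7% of all tested genes were called). Between HC11 and C57MG 13 were called, 8 of them higher in HC11 (70.5%), and for BC44 and C57MG 7 were, 5 of them higher in C57MG (71.7%). The medians toward HC11 were 0.81 and 0.44, and BC44 minus C57MG had -0.27. Angptl4, on this list and among the PPAR targets below, entered the test only through HC11, so its calls toward HC11 follow from that. Lcn2, which encodes the secreted protein lipocalin 2, was at 123.945 and 249.726 RPKM in HC11, at 5.096 and 9.298 in C57MG and at 0.03 and 0.1 in BC44. Errfi1, which encodes an inhibitor of the EGF receptor, was at 73.040 and 132.938 RPKM in HC11, 26.153 and 29.027 in C57MG and 16.631 and 20.159 in BC44. Cebpb, a transcription factor gene, was also highest in HC11 (261.2 ± 32.3 RPKM) and lowest in BC44 (78.4 ± 8.84; SD, n = 2 each), called in all 3 contrasts. Mt2, a metallothionein gene, ran the other way, with 156.0 ± 8.39 RPKM in BC44 and 45.8 ± 17.5 in HC11 (SD, n = 2 each). Sgk1, a kinase gene, had the C57MG maximum that Nr3c1 had, at 112.666 and 116.773 RPKM against 24.929 and 26.063 in HC11 and 13.350 and 14.973 in BC44. Fkbp5, which encodes a chaperone of the receptor and is induced through it, had the means of the lines in the order seen for Nr3c1, at 16.810 and 14.607 RPKM in C57MG, at 12.350 and 12.880 in BC44 and at 8.606 and 7.173 in HC11. HC11 was lower in Fkbp5 than C57MG by 0.91 (SE 0.12, limma adjusted p-value 0.000270) and than BC44 by 0.62 (SE 0.12, 0.00389), while BC44 and C57MG differed by -0.29 (SE 0.12, 0.0539), which was not called. All 10 chaperone genes of the steroid receptor complex are listed. Of these, 4 were called in BC44 against HC11 (background 47.7%), 5 for BC44 with C57MG (71.7%) and 9 for HC11 with C57MG (70.5%), in both directions. Ptges3, the p23 co-chaperone gene, was highest in BC44, at 191.638 and 215.850 RPKM, and lowest in C57MG, at 93.971 and 93.270.

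Among genes of steroid and vitamin D metabolism, most called differences from C57MG were toward C57MG. Of 18 genes 10 are in the table, and C57MG was higher than BC44 for 7 of 9 called genes and higher than HC11 for 6 of 8, where 71.7% and 70.5% of all tested genes were called. Between BC44 and HC11 3 of 10 were called, all 3 higher in HC11 (47.7%). Hsd11b1, whose enzyme regenerates active glucocorticoid inside cells, was at 6.232 and 8.862 RPKM in C57MG, at 1.113 and 1.598 in HC11 and at 0.505 and 0.550 in BC44. C57MG thus had the highest Nr3c1 and the highest Hsd11b1, 14.3 times BC44 and 5.57 times HC11, called in both contrasts (limma adjusted p-values 8.38e-06 and 4.59e-05). Hsd17b11, another steroid dehydrogenase gene, was nearly absent from BC44, at 0 and 0.018 RPKM, against 5.838 and 6.819 in HC11 and 4.593 and 3.953 in C57MG. Hsd3b7, also on this list, entered the test only through C57MG, so a call toward C57MG follows from that. The vitamin D enzymes Cyp27b1 and Cyp24a1 are not listed.

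Target genes of the other receptors were also mixed. Of 20 PPAR targets 10 were tested, and C57MG was higher than BC44 for 5 of 8 called genes and higher than HC11 for 4 of 8 (backgrounds 71.7% and 70.5%). Between BC44 and HC11 7 of 10 were called, 5 of them higher in HC11 (47.7%). Plin4, a lipid droplet coat gene, was at 26.682 and 24.141 RPKM in C57MG and at most 0.578 elsewhere. Ucp2, a mitochondrial carrier gene, was low in that line, at 0.309 and 0 RPKM in C57MG against 55.956 and 47.847 in BC44 and 38.390 and 32.464 in HC11. Angptl4, which encodes a secreted lipase inhibitor, was highest in HC11, at 3.752 and 4.630 RPKM and at most 0.271 elsewhere. Plin4 entered the tests only through C57MG and Angptl4 only through HC11, so their called differences toward those lines follow from that. Of 8 vitamin D targets 3 were tested. Between BC44 and HC11 2 were called, 1 each way (47.7% of all tested genes were called). BC44 and C57MG gave 3, with 2 higher in C57MG (71.7%), and HC11 and C57MG gave 1, higher in C57MG (70.5%). Spp1, the osteopontin gene, was at 2741 and 2989 RPKM in C57MG and 2214 and 2413 in HC11 and 67.771 and 102.588 in BC44. Cdkn1a, the gene of the cell cycle inhibitor p21, was highest in BC44, at 58.948 and 49.292 RPKM against 16.955 and 28.036 in HC11 and 24.195 and 28.652 in C57MG, and BC44 exceeded HC11 by 1.27 (SE 0.22, limma adjusted p-value 0.00245) and C57MG by 1.01 (SE 0.22, 0.00385). Slc37a2, a sugar phosphate transporter gene, was highest in C57MG, at 1.656 and 1.826 RPKM and at most 0.357 elsewhere. It entered the test only through C57MG, so its called differences toward C57MG follow from that. Of 10 oestrogen targets 8 were tested, and 5 were called for BC44 and HC11 (4 higher in HC11), 7 for BC44 and C57MG (6 higher in C57MG) and 7 for HC11 and C57MG (4 higher in C57MG), beside the same backgrounds. Greb1, an oestrogen-induced gene, was at 2.496 and 1.843 RPKM in HC11 and no higher than 0.041 elsewhere. Igfbp4 and Cxcl12, both secreted protein genes, were highest in C57MG, at 340.576 and 357.475 RPKM and at 92.828 and 103.179 RPKM. Greb1 entered the tests only through HC11 and Cxcl12 only through C57MG, so their called differences toward those lines follow from that.

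All 16 coregulator genes looked up were listed and tested. In BC44 against HC11 5 were called (31.2%, 3 higher in BC44). With C57MG, BC44 gave 10 (62.5%, 7 higher in BC44) and HC11 gave 7 (43.8%, 6 higher in HC11). Each share was under its background of 47.7%, 71.7% and 70.5%. Ppargc1a, the coactivator gene PGC-1 alpha, was at 2.489 and 2.249 RPKM in HC11, at 0.268 and 0.129 in BC44 and at 0.050 and 0.029 in C57MG. It entered the test only through HC11, so its called differences toward HC11 follow from that. Carm1, an arginine methyltransferase gene, was at 22.4 ± 1.63 RPKM in C57MG, 35.2 ± 0.881 in HC11 and 51.2 ± 0.0304 in BC44 (SD, n = 2 each), called in all 3 contrasts. Ncoa4, a coactivator gene, was highest in C57MG, at 18.146 and 18.139 RPKM against 10.196 to 13.465 in the other lines.

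The 3 tested members with the widest range of line means were Rara (1.83), Nr3c1 (1.75) and Vdr (1.62). Among 10758 other tested genes, the profiles closest to Rara over the 6 libraries, by Euclidean distance of centred log2(RPKM + 1), were those of Abcc5 (0.16), Hexim1 (0.168) and Tmem62 (0.172). Closest to Nr3c1 were Tmem64 (0.166), Ftl1 (0.212) and Galc (0.221). Closest to Vdr were Foxd1 (0.27), Sidt2 (0.272) and Sema3f (0.335). With 6 libraries in 3 lines, these distances describe mainly the 3 line levels.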

How the data were processed

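Poly(A) RNA libraries of 3 untreated mouse cell lines, 2 per line, were made with a directional kit, per the labels' protocols. The deposited values are RPKM computed by the authors, 1 column per library, for 11417 genes. STAR and the build mm9 are named in the submitters' processing notes; the counter, gene lengths and gene filter are not given in the sources used here. Coordinates are from GENCODE M21 (GRCm38), to which all 11417 identifiers matched, and are not those of the authors' alignment.

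Genes with at least 1 RPKM in at least 2 libraries (10759) entered limma 3.58.1 under R 4.3.3 as log2(RPKM + 1) values (trend, all 6 libraries, two-sided, Benjamini-Hochberg within each contrast), and 658 were not tested. The scale understates changes of low genes. Members, lists and tests were chosen with earlier results of these data known. Named genes were the members, any listed nuclear receptor and, per other list and contrast, at most the 4 largest called differences; genes of like pattern were the 3 nearest for each of 3 members. The fit was checked on simulated data. The values of 1 receptor gene of the wider list are not reported here.

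Read numbers were estimated from the step of low values given exonic lengths. Between 76.0% and 81.6% of 244 to 387 low values per library lay within 0.15 of a whole multiple, against 30% by chance. Estimates and floors of 3 reads cover counting error only. Levels and intervals came from scipy 1.17.1, pandas 2.3.3 and numpy 2.4.6 in Python 3.11.15, and plots from matplotlib 3.10.9. Promoter windows are from RefSeq (GRCm38.p6). Alternatives were another pseudocount, other filters, 2 scalings, other variance models, a fit of the compared lines alone, the replicate block and leaving out each library.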

Additional observations from a re-analysis of the deposited data

How the results depend on the processing

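With 2 libraries per line, all differences rest on a spread estimated mainly across genes. Of 357 recomputed member differences, 354 kept their direction and their side of the threshold; a mean of at least 5 RPKM left Pparg untested. The exceptions were Rxra between BC44 and HC11, which was called without HC11 replicate 1 (0.46, adjusted p-value 0.0160) and reversed without HC11 replicate 2 (-0.069, 0.612), and Rarg between BC44 and C57MG, which was not called without C57MG replicate 2 (-0.27, 0.0690). Leaving out single libraries gave 4 to 5 called members for BC44 against HC11, 5 to 6 for BC44 against C57MG and 8 for HC11 against C57MG, and 3762 to 4776, 6554 to 7944 and 6274 to 7404 genes. In BC44 against C57MG, 10 of 16 receptor genes were called at a mean of at least 5 RPKM, where fewer genes were tested, against 16 of 23. With no filter on low values Esr1 entered the fit. Called members were then 4 of 9 for BC44 and HC11, 7 of 9 for BC44 and C57MG and 9 of 9 for HC11 and C57MG. Of all 11417 genes, 5387, 8120 and 7980 were called. The other members kept their calls, so the added call in both contrasts with C57MG was that of Esr1.

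A replicate block (library number as a term) gave calls for 5350, 7875 and 7721 genes, against 5129, 7713 and 7590, and no member's call changed. Same-numbered libraries' deviations correlated by 0.354, -0.039 and 0.038 across genes in BC44 with HC11, BC44 with C57MG and HC11 with C57MG. The numbers were not taken as pairs in the main fit, although the value for BC44 with HC11 stood above the others. Whether same-numbered libraries of these lines share a batch was not tested. Scaling moved the median of all genes by under 0.1 in every contrast. Depth limits Esr1 and Pparg in BC44, at an estimated 7 and 7 reads for Esr1 and about 3 reads in all for Pparg (1 and 1 when rounded by library).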
